A study of Mus musculus with 13 samples.

Results

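The 10 genes described here belong to the antioxidant program of the transcription factor NRF2 and to glutathione metabolism, namely *Slc7a11*, *Gclc*, *Gclm*, *Gss*, *Gsr*, *Gsta3*, *Hmox1*, *Nqo1*, *Txnrd1* and *Srxn1*. They were taken by symbol from the 24562 genes of the count table. Where a symbol had several RefSeq transcripts, the row was chosen by its total count over all libraries, the highest standing for the gene. These totals ran from 669 for *Nqo1* to 291559 for *Hmox1*, and the choice bore on a value for *Txnrd1* alone. The 4 *Txnrd1* transcripts did not all share 1 count, whereas the 2 rows of *Gss* and the 3 of *Gsta3* held identical counts in every library. All 10 genes passed the filter on low counts. Positions of genes below are those of RefSeq on GRCm38.p6, the patch release of the mm10 build, and span every annotated transcript of a gene, so that a start site may lie inside them.

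The cells were bone marrow-derived macrophages (BMDMs) of female mice, grown from bone marrow in medium conditioned by L929 fibroblasts and stimulated with lipopolysaccharide (LPS), a part of the bacterial outer membrane. Controls (Acly fl/fl, AclyM-WT in the series design and WT in the labels) were compared with AclyM-KO macrophages (called KO), which came from C57Bl/6J mice with the same floxed exon of *Acly* and Cre driven from *Lyz2*, a gene of myeloid cells. *Acly* encodes ATP citrate lyase, the enzyme that makes cytosolic acetyl-CoA from citrate. Libraries were made after 3 h LPS (3 control, 3 AclyM-KO) and after 24 h LPS (4 control, 3 AclyM-KO). The labels name neither the age of the mice nor whether replicates came from separate mice, so the p-values below measure the spread between these libraries, which may be technical. No unstimulated library was analysed here, and a change with time is therefore one from 3 h to 24 h LPS.

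Under resting conditions KEAP1 holds NRF2 (gene *Nfe2l2*) in the cytosol and has it degraded. Electrophiles and oxidants release NRF2, which then enters the nucleus, pairs with small MAF proteins and binds antioxidant response elements, where BACH1 competes with it as a repressor. Its targets supply cystine, build and recycle glutathione, degrade heme and reduce quinones and oxidised peroxiredoxins, and in macrophages this program is known to follow LPS activation. *Slc7a11* also belongs to the known targets of ATF4, the factor of the amino acid response, which binds elements of its own.

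Short promoter stretches are shown because they set *Slc7a11* and *Gsta3*, the genes with the largest effects below, beside other members. The 250 bases before each annotated RefSeq start (GRCm38.p6) were searched on both strands for the antioxidant response element core TGACNNNGC and for the amino acid response element TGATGNAA. Windows were held for 7 of the 10 genes. *Gclc*, *Gsr* and *Hmox1* had none. The antioxidant core lay in the windows of *Gclm* and *Gsta3* and in 1 of the 3 windows of *Txnrd1*. Of all 32851 windows 10.2% held it. That share counts windows and not genes, and a gene with several windows has more chances of a match. No share per gene was computed. The amino acid element lay in that of *Slc7a11* alone among the 7, in 2 matches with 11 bases between them, against 3.45% of all windows, and no window of the 7 genes held both. The stretches below run 5′ to 3′ on the strand of the gene, with the matches in capitals.
Slc7a11, chr3:50443643-50443689, minus strand: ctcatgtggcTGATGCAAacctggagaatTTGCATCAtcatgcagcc
Gsta3, chr1:21240454-21240482, plus strand: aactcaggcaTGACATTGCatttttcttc
Gclm, chr3:122245413-122245441, plus strand: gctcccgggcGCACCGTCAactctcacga
Txnrd1, chr10:82859104-82859132, plus strand: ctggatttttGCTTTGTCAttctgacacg
The *Slc7a11* matches began 66 and 47 bases before the start, the second on the other strand, and those of *Gsta3*, *Gclm* and *Txnrd1* began 121, 134 and 92 bases before it. A match describes letters in this window only, and elements farther away were not searched.

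The 12 libraries used below held 21274102 to 59577343 counts each, in groups of n = 3. The remaining one, control 24 h replicate 1, held 34467 and was left out, and calls that changed with it in the fit are given beside the result. Levels are in CPM, counts per 1000000 of the TMM-scaled library total. A single count stood for 22.4 CPM in the library left out. It held no count of 6 of the 10 genes, and a count of 0 allows a level of up to 67.2 CPM there (3 counts, counting error only). Its 10 *Hmox1* counts stood for 224 CPM (exact Poisson 95% interval 107 to 412), between the 92.5 to 95 CPM of controls after 3 h and the 1325 to 1448 CPM of the other controls after 24 h LPS. *Acly* itself, counted over its whole transcript, had 41.8 CPM in AclyM-KO and 106 CPM in control libraries after 3 h and 29.9 and 109.8 CPM after 24 h LPS, on average (log2 fold change -1.34, adjusted p = 6.41e-16, and -1.88, adjusted p = 4.81e-20). Macrophage markers were abundant, with summed levels of the 6 other than *Lyz2* between 3482 and 4065 CPM over the 12 libraries. With *Lyz2*, from which the Cre is driven, the sum was 6137 to 7008 CPM in AclyM-KO and 9079 to 9198 CPM in control libraries after 3 h, and 4426 to 4527 and 5934 to 6229 CPM after 24 h LPS. The 7 neutrophil markers summed to at most 8.60 CPM, with *Retnlg* and *Ly6g* at 0 in all 12 libraries. The 4 dendritic cell markers summed to 1.74 to 2.40 CPM in AclyM-KO and 1.39 to 1.59 CPM in control libraries after 3 h LPS, and to at most 0.58 CPM after 24 h. The 4 fibroblast markers reached 0.56 CPM in AclyM-KO and 0.15 CPM in control libraries, and those of B, T and erythroid cells at most 0.26 CPM. The part of these markers in the results was not tested.

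Groups were compared by the quasi-likelihood test of edgeR, fitted once over the 12 libraries and 4 groups on 19621 transcripts of 11942 genes. A gene is said to have risen or fallen at a Benjamini-Hochberg adjusted p under 0.05 over all transcripts. It is called changed where its log2 fold change also lay beyond 0.75 in either direction.

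The first comparison asked how these genes differed between AclyM-KO and control macrophages at each time. After 3 h LPS, 4 of the 10 genes rose in AclyM-KO macrophages (*Gsta3*, *Srxn1*, *Gclm* and *Hmox1*), none fell, and 1, *Gsta3*, was changed. Over all 11942 genes tested, 8.52% rose and 1.41% were changed upwards. After 24 h LPS, 8 of the 10 rose, all but *Gsr* and *Gsta3*, and 1, *Slc7a11*, was changed, where 8.31% of all genes rose and 0.896% were changed upwards. With control 24 h replicate 1 in the fit, 3 rose after 3 h and 7 after 24 h LPS, since *Hmox1* no longer passed at either time. The median log2 fold change of the 10 genes was 0.24 after 3 h and 0.27 after 24 h LPS, against -0.005 and 0.005 over all genes tested. In such bulk RNA, more cells of a kind and more RNA per cell cannot be told apart.

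**Figure D1:**
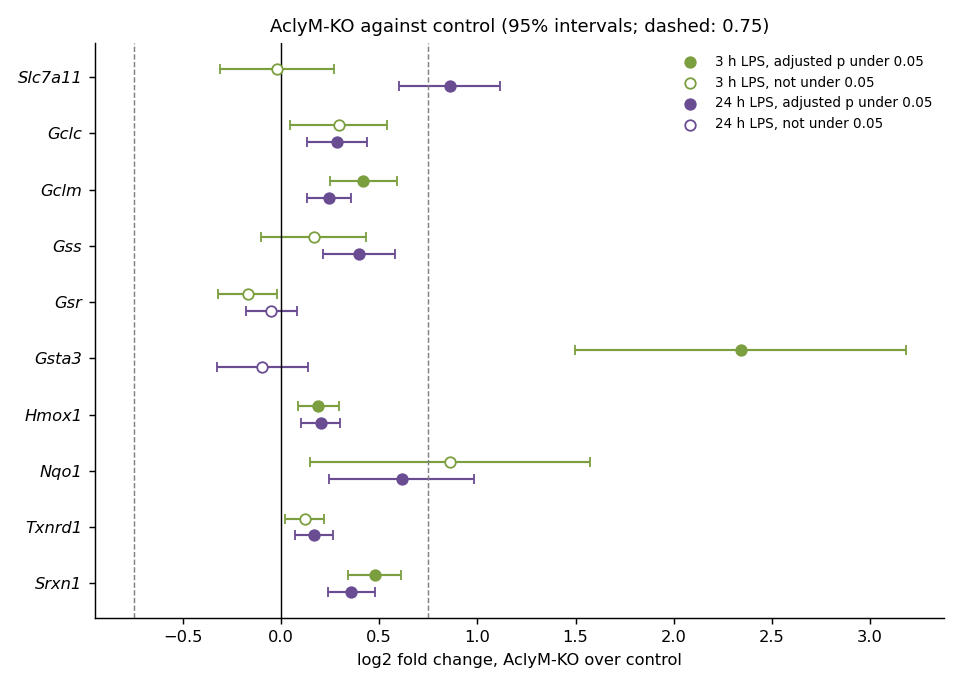
Log2 fold change of AclyM-KO over control (x axis) for each gene (y axis) after 3 h (green) and 24 h LPS (purple), with 95% intervals. Filled points passed at an adjusted p under 0.05 and the dashed lines mark 0.75. *Gsta3* at 3 h (2.34) and *Slc7a11* at 24 h (0.86) are the filled points beyond the dashed line.

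*Slc7a11* (chromosome 3, 50364936 to 50499087, minus strand) encodes xCT, the subunit of the plasma membrane exchanger that imports cystine, from which cells take the cysteine of glutathione. After 3 h LPS the controls had 35, 35.7 and 37.2 CPM and the AclyM-KO libraries 42.5, 27.7 and 36.5. The AclyM-KO values lay on both sides of the controls, and the log2 fold change was -0.02 (95% interval -0.31 to 0.27, adjusted p = 0.948). It turned positive without AclyM-KO 3 h replicate 2 (0.14) and without control 3 h replicate 3 (0.0084), neither past the threshold. The controls after 24 h LPS had 54.8, 68.2 and 65.7 CPM and the AclyM-KO libraries 117, 113 and 113. Every AclyM-KO library lay above every control, at a mean of 114 ± 2.61 against 62.9 ± 7.13 CPM (SD, n = 3 each). This was a 1.81-fold difference, or 0.86 on a log2 scale with a standard error of 0.12 (adjusted p = 4.56e-04), and 0.86 with control 24 h replicate 1 in the fit as well. The effect of the genotype differed between the times by 0.88 in log2 units, with a standard error of 0.18 (adjusted p = 0.00941, interaction test). An interaction passed for 9.59% of all genes tested. The study had picked *Slc7a11* for display at the later time from these same libraries, so its rise is not independent evidence of a direction.

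The partner of xCT in the exchanger, the heavy chain CD98hc, is encoded by *Slc3a2*, which serves several other amino acid transporters too. *Slc3a2* had 213, 232 and 228 CPM in controls and 289, 287 and 295 in AclyM-KO libraries after 3 h LPS, with no overlap (log2 fold change 0.37, adjusted p = 1.07e-05). At 24 h it had 219, 210 and 192 against 280, 284 and 308 CPM (0.49, adjusted p = 9.61e-08). The subunits thus differed in time course. *Slc3a2* rose in AclyM-KO macrophages at both times, with no interaction past the threshold (0.12, 95% interval -0.03 to 0.27, adjusted p = 0.357), and *Slc7a11* at 24 h.

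Glutamate-cysteine ligase makes the first and limiting step of glutathione synthesis. Its catalytic subunit is *Gclc* (chromosome 9, 77754535 to 77794489, plus strand) and its modifier subunit *Gclm* (chromosome 3, 122245487 to 122267215, plus strand). *Gclm* had 9.88, 9.92 and 10.9 CPM in controls and 14.1, 12.7 and 14.3 in AclyM-KO libraries after 3 h LPS, with no overlap and a log2 fold change of 0.42 (standard error 0.08, adjusted p = 5.86e-04). After 24 h it had 95.9, 106 and 107 against 125, 121 and 121 CPM, again without overlap, and 0.24 (standard error 0.06, adjusted p = 0.00261). *Gclc* followed at lower levels. Its controls had 4.07, 4.40 and 4.64 CPM and its AclyM-KO libraries 4.66, 5.73 and 5.63 after 3 h, and the lowest AclyM-KO value lay just above the highest control. With a log2 fold change of 0.29 it did not pass (adjusted p = 0.102), and it did without AclyM-KO 3 h replicate 1 (0.38, adjusted p = 0.0388). *Gclc* rose after 24 h LPS by 0.29 (standard error 0.07, adjusted p = 0.00775), from 20.6, 22.2 and 21.8 CPM to 25.9, 26.6 and 26.3.

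*Gss* (chromosome 2, 155563181 to 155592810, minus strand) encodes glutathione synthetase, which adds glycine in the second step. After 3 h LPS its levels of 5.76, 5.52 and 5.78 CPM in controls overlapped the 6.30, 5.77 and 7.12 of AclyM-KO libraries (log2 fold change 0.17, adjusted p = 0.439). At 24 h the 14.5, 18.8 and 16.8 CPM of controls lay below the 23.5, 22.9 and 19.6 of AclyM-KO libraries, a rise of 0.40 in log2 units (standard error 0.09, adjusted p = 0.00226). Long GENCODE isoforms of *Acss2*, which lies on the other strand, reach into *Gss*, and the strand setting of the counting is not given in the sources used here. The study's methods describe strand-specific libraries. Between the genotypes *Acss2* had a log2 fold change of 1.55 after 3 h (adjusted p = 7.06e-09) and 0.01 after 24 h LPS (adjusted p = 0.951). From 3 h to 24 h LPS *Acss2* rose by 3.67 in controls and 2.13 in AclyM-KO macrophages, and *Gss* rose too, by 1.55 and 1.78. Whether reads of *Acss2* entered the counts of *Gss* was not tested. *Gsr* (chromosome 8, 33653238 to 33698162, plus strand) encodes glutathione reductase, which returns oxidised glutathione to its reduced form with NADPH. It was the only member with a log2 fold change below 0 at both times, -0.17 after 3 h (adjusted p = 0.12) and -0.05 after 24 h LPS (95% interval -0.18 to 0.08, adjusted p = 0.665), and neither passed. Its levels of 36.4, 35.3 and 36.5 CPM in controls and 35.7, 27.5 and 33.2 in AclyM-KO libraries overlapped after 3 h, and so did the 86.1 to 91.6 and 82.7 to 89.3 CPM after 24 h LPS. Without AclyM-KO 3 h replicate 1, *Gsr* fell after 3 h (-0.25, adjusted p = 0.0137).

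*Gsta3* (chromosome 1, 21240565 to 21265575, plus strand) encodes an alpha class glutathione transferase, an enzyme that couples glutathione to electrophiles. After 3 h LPS it held 3, 4 and 2 counts in the control libraries, or 0.15, 0.19 and 0.10 CPM, and 12, 17 and 19 counts in the AclyM-KO libraries, or 0.61, 0.74 and 0.91 CPM. All 3 AclyM-KO libraries lay above all controls. On the summed counts, 48 against 9, the ratio was 5.20 (exact 95% interval 2.52 to 12, counting error only). The fitted log2 fold change, which at such counts depends on the prior count of the fit, was 2.34 (standard error 0.41, adjusted p = 1.64e-04). By 24 h LPS the levels had come to overlap, with 8.49, 8.31 and 8.31 CPM in controls and 7.92, 7.16 and 8.40 in AclyM-KO libraries (log2 fold change -0.09, 95% interval -0.33 to 0.14, adjusted p = 0.644). The effect of the genotype was lower after 24 h than after 3 h by -2.43 (standard error 0.43, adjusted p = 2.78e-04 from the interaction test). Of the close relatives, *Gsta1* and *Gsta2* were listed at 0 in every library, and *Gsta4* held 8 counts in all 13 libraries together.

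*Srxn1* (chromosome 2, 152105524 to 152111376, plus strand) encodes sulfiredoxin, which repairs overoxidised peroxiredoxins. The AclyM-KO libraries, with 54.5, 67.6 and 62.8 CPM, lay above the controls, with 45.5, 46.5 and 40.7, after 3 h LPS, a difference of 0.48 in log2 units (standard error 0.07, adjusted p = 6.30e-06). They had, after 24 h LPS, 278, 286 and 290 CPM against 214, 227 and 224, or 0.36 in log2 units (standard error 0.06, adjusted p = 6.54e-05). *Srxn1* thus had the lowest p of the 10 genes at both times. *Txnrd1* (chromosome 10, 82833951 to 82897724, plus strand) encodes the cytosolic thioredoxin reductase, a selenoprotein. Its groups did not overlap at either time, with 174, 181 and 175 CPM against 193, 187 and 197 after 3 h and 237, 241 and 253 against 273, 269 and 282 CPM after 24 h LPS. The differences were small, with log2 fold changes of 0.12 (adjusted p = 0.0904) and 0.17 (standard error 0.05, adjusted p = 0.0136), of which the second passed. Without AclyM-KO 24 h replicate 3 or control 24 h replicate 2 or 3, the second no longer passed (adjusted p = 0.0598 to 0.0843). *Eid3*, which lies inside *Txnrd1* on the same strand, held 82 counts over all libraries, against 72339 of *Txnrd1*.

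*Hmox1* (chromosome 8, 75093618 to 75100593, plus strand) encodes heme oxygenase-1, which breaks heme into biliverdin, iron and carbon monoxide. The controls had 95, 92.9 and 92.5 CPM and the AclyM-KO libraries 104, 106 and 110 after 3 h LPS, without overlap (log2 fold change 0.19, standard error 0.05, adjusted p = 0.0114). After 24 h LPS the controls had 1325, 1448 and 1365 CPM and the AclyM-KO libraries 1683, 1491 and 1591, again without overlap (0.20, standard error 0.05, adjusted p = 0.00415). With control 24 h replicate 1 in the fit the adjusted p was 0.574 after 3 h and 0.368 after 24 h LPS. The call was also lost without AclyM-KO 3 h replicate 3 (adjusted p = 0.0712) and without AclyM-KO 24 h replicate 1 (adjusted p = 0.0565). *Nqo1* (chromosome 8, 107388225 to 107403205, minus strand) encodes the NAD(P)H quinone reductase, which is often used as an index of NRF2 activity, and it was scarce. After 3 h LPS the controls held 6, 15 and 10 counts and the AclyM-KO libraries 13, 20 and 25. These overlapped, and the log2 fold change of 0.86 was not past the threshold (95% interval 0.15 to 1.57, adjusted p = 0.0963). After 24 h LPS the controls had 2.30, 2.00 and 2.83 CPM and the AclyM-KO libraries 3.90, 3.46 and 3.91, which did not overlap (0.62, standard error 0.18, adjusted p = 0.0198). That call was lost without AclyM-KO 24 h replicate 1 or 3 or control 24 h replicate 2 or 3 (adjusted p = 0.0678 to 0.0873). Without control 24 h replicate 4 the log2 fold change of *Nqo1* was 0.80, past the fold threshold, so that 2 of the 10 genes were then changed after 24 h LPS.

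AclyM-KO and control libraries did not overlap for 6 of the 10 genes after 3 h and for 8 after 24 h LPS, each time with the AclyM-KO libraries higher, against 15.4% and 18.2% of all genes. Without AclyM-KO 3 h replicate 1, 7 of the genes passed after 3 h LPS in place of 4, with *Gclc* (0.38) and *Nqo1* (1.03) higher and *Gsr* (-0.25) lower in addition, and *Nqo1* was then changed beside *Gsta3*.

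**Figure D2:**
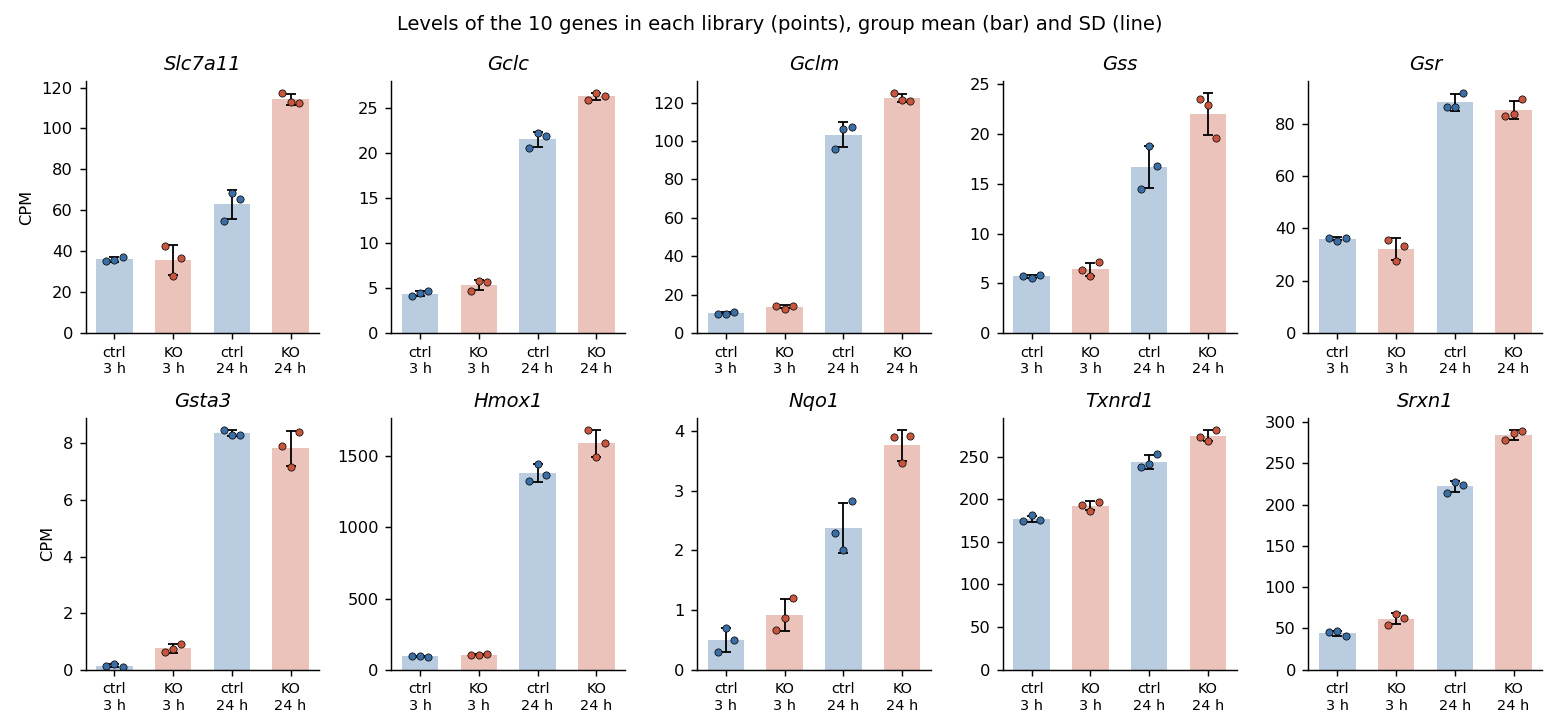
Level of each gene in CPM (y axis, from 0) in control (blue) and AclyM-KO (red) BMDMs after 3 h and 24 h LPS (x axis). Points are the 12 libraries, bars the means and lines the SD of 3 libraries. *Slc7a11* separates by genotype at 24 h, at 114 against 62.9 CPM, and all 10 genes are higher at 24 h than at 3 h in both genotypes.

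The second comparison asked how the genes differed between 24 h and 3 h LPS within each genotype. All 10 genes rose from 3 h to 24 h in control and in AclyM-KO macrophages, and every library at 24 h lay above every library at 3 h of the same genotype, as it did for 40.3% of all genes in controls and 40.1% in AclyM-KO macrophages. In both genotypes 9 of the 10 were changed, and *Txnrd1* rose by less than the fold threshold. In the controls 38.9% of all genes rose and 20.9% were changed upwards, and in AclyM-KO macrophages 39.4% and 21.9%. The median log2 fold change of the 10 genes was 2.29 in controls and 2.12 in AclyM-KO macrophages, against 0.04 over all genes in each. These comparisons share their libraries with those between genotypes and are not independent of them.

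In controls *Gsta3* had the highest log2 fold change of the 10, at 5.79 (from 9 counts in all at 3 h), against 3.36 in AclyM-KO macrophages. *Hmox1* rose 14.8-fold in controls and 14.9-fold in AclyM-KO macrophages, a log2 fold change of 3.88 and 3.90, the highest of the 10 in AclyM-KO macrophages. *Gclm* rose by 3.34 and 3.16 on the log2 scale, and *Gclc* by 2.30 and 2.29. *Srxn1* rose by 2.33 and 2.21, *Nqo1* by 2.28 and 2.03, *Gss* by 1.55 and 1.78, and *Gsr* by 1.29 and 1.41. *Txnrd1*, already at 177 CPM in controls after 3 h LPS, rose least in AclyM-KO macrophages and in controls, by 0.51 and 0.46. *Slc7a11* rose 1.75-fold in controls (0.81, standard error 0.12, adjusted p = 8.83e-05) and 3.22-fold in AclyM-KO macrophages (1.69, standard error 0.12, adjusted p = 9.04e-08). The interaction test above is the test of that difference. For 8 of the 10 genes, all but *Slc7a11* and *Gsta3*, no interaction passed, where one passed for 9.59% of all genes tested. The largest of these 8 differences was -0.25 for *Nqo1* (95% interval -1.04 to 0.55).

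**Figure D3:**
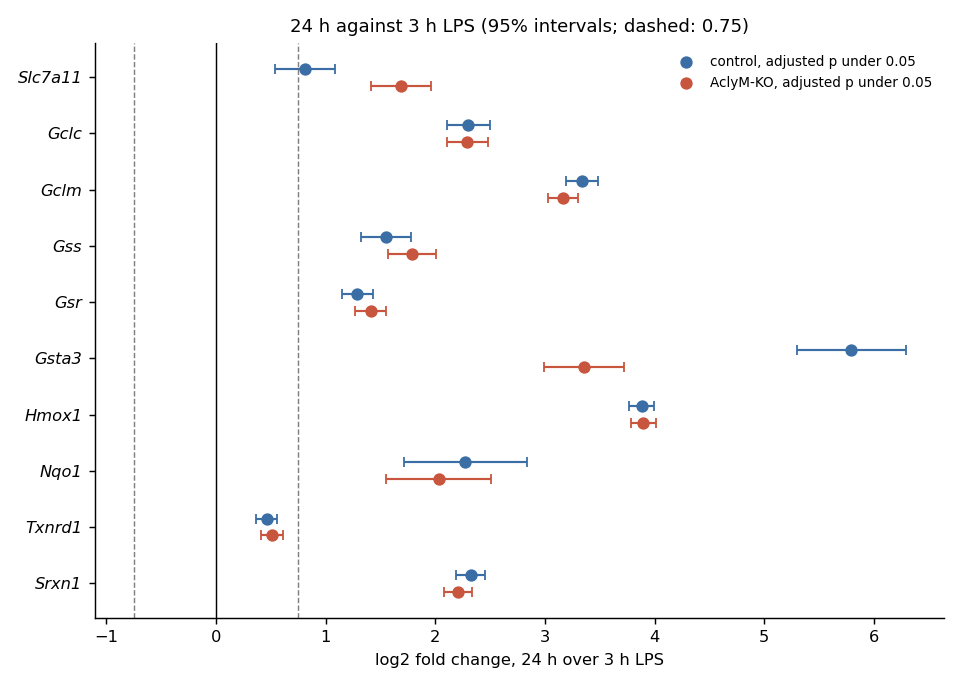
Log2 fold change of 24 h over 3 h LPS (x axis) for each gene (y axis) in control (blue) and AclyM-KO macrophages (red), with 95% intervals and dashed lines at 0.75. The intervals of the genotypes lie apart for *Slc7a11*, at 0.81 and 1.69, and for *Gsta3*, at 5.79 and 3.36.

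For 7 of the 10 genes the group means ran in 1 order, lowest in controls at 3 h, then AclyM-KO at 3 h, controls at 24 h and AclyM-KO at 24 h. For *Gclc*, *Gclm*, *Hmox1*, *Txnrd1* and *Srxn1* no neighbours in this order overlapped, and for *Gss* and *Nqo1* the genotypes overlapped at 3 h. *Slc7a11* had its genotypes in the opposite order at 3 h, where they overlapped, *Gsta3* at 24 h, where they overlapped, and *Gsr* at both times, with overlap at each.

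Levels per transcript length (CPM per kb) allow the genes to be compared. Among the 10, *Hmox1* was highest in every group, from 59.6 ± 0.85 in controls at 3 h to 1012 ± 61.4 in AclyM-KO macrophages at 24 h (SD, n = 3 each). *Srxn1* came next at 24 h, at 78.9 in controls and 101.2 in AclyM-KO macrophages, ahead of *Txnrd1* at 67.3 and 75.7, whereas at 3 h *Txnrd1* (48.8 and 53.1) lay above *Srxn1* (15.7 and 21.9). At 24 h the lowest was *Nqo1*, at 1.53 in controls and 2.42 in AclyM-KO macrophages. Controls at 3 h had their lowest level in *Gsta3*, at 0.16. *Slc7a11*, with a transcript of 9223 bases, had 3.90 and 3.86 at 3 h and 6.82 and 12.4 at 24 h. The modifier subunit *Gclm* exceeded the catalytic subunit *Gclc* per length by a ratio of 1.43 ± 0.05 in controls and 1.59 ± 0.25 in AclyM-KO macrophages at 3 h, and by 2.94 ± 0.08 and 2.86 ± 0.09 at 24 h (SD, n = 3 each). The ratios of all libraries at 24 h, 2.79 to 3.02, lay above all those at 3 h, 1.36 to 1.85, and the genotypes overlapped at each time.

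**Figure D4:**
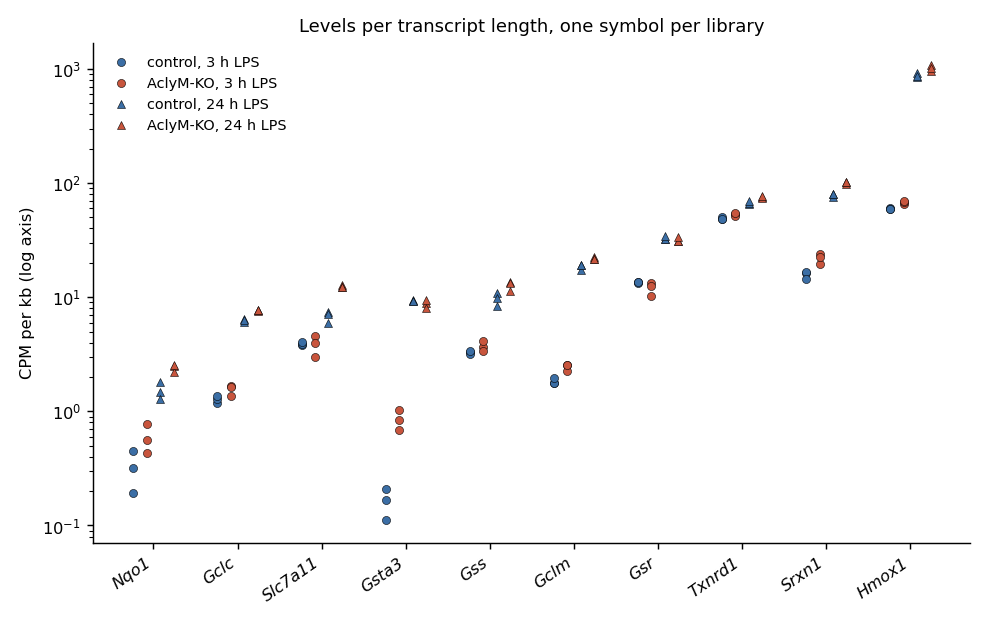
Level per transcript length (CPM per kb, logarithmic y axis) of each gene (x axis, ordered by its control mean at 24 h). Circles are libraries at 3 h and triangles those at 24 h LPS, in blue for control and red for AclyM-KO. The highest group mean is 1012 for *Hmox1* and 2.42 for *Nqo1*, both in AclyM-KO at 24 h.

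*Nfe2l2*, the gene of NRF2, had 84.9, 78.3 and 88.6 CPM in controls and 110, 87.2 and 106 in AclyM-KO libraries after 3 h LPS. 1 AclyM-KO library lay within the controls, and the log2 fold change of 0.27 passed (standard error 0.07, adjusted p = 0.0084). After 24 h LPS it was -0.04 (adjusted p = 0.716), with 118 to 129 CPM in controls and 118 to 123 in AclyM-KO libraries, and the effects at the times differed by -0.31 (adjusted p = 0.0368). *Keap1*, the gene of the protein that has NRF2 degraded, did not pass at 3 h (-0.14, adjusted p = 0.0903) or 24 h (-0.02, adjusted p = 0.855). *Bach1*, the gene of the competing repressor, had 340, 348 and 337 CPM in controls and 299, 314 and 275 in AclyM-KO libraries after 3 h, without overlap, and fell (-0.21, standard error 0.05, adjusted p = 0.00433). After 24 h LPS it had 54.0 to 54.6 CPM in controls and 60.2 to 62.3 in AclyM-KO libraries and rose by 0.17 (adjusted p = 0.0311), so that its effects at the times differed by 0.38 (adjusted p = 8.85e-04). From 3 h to 24 h LPS *Bach1* fell strongly in controls, with a log2 fold change of -2.65, and in AclyM-KO macrophages, with -2.28. *Nfe2l2* (0.57 and 0.26) and *Keap1* (0.14 and 0.27) rose over this time. Of the small MAF genes, *Maff* (-1.61 and -2.08) and *Mafk* (-1.68 and -1.51) fell and *Mafg* (1.02 and 0.72) rose. The part of these genes in the rise of the 10 was not tested.

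Of the 127 further genes of the pathway in 8 lists, 107 were tested. In AclyM-KO macrophages 28 of these rose and 7 fell after 3 h LPS, and 14 rose and 11 fell after 24 h LPS, against 8.52% and 6.92% of all genes at 3 h and 8.31% and 5.59% at 24 h. Their median log2 fold change was 0.08 after 3 h and -0.015 after 24 h LPS, and 3 of them were changed, all after 3 h. Beyond these 3, *Nfe2l2*, *Keap1*, *Bach1* and *Slc3a2*, the genes named below were chosen after their values were seen. NRF2 and its regulators (14 tested) had 7 genes that rose and 1, *Bach1*, that fell after 3 h, and 4 that rose after 24 h LPS. The small MAF partners *Maff* (0.44), *Mafg* (0.40) and *Mafk* (0.23) were among those that rose after 3 h, and *Mafk* (0.40) also rose after 24 h LPS. The list of other known NRF2 targets (19 tested) had 7 genes that rose and none that fell after 3 h, with a median of 0.22. After 24 h LPS 1 of its genes rose and 1 fell, with a median of -0.004. After 3 h the risers included *G6pdx* (0.21), *Pgd* (0.29), *Tkt* (0.42) and *Taldo1* (0.17), enzymes of the pentose phosphate pathway, of which *G6pdx* and *Pgd* make NADPH. *Tkt* fell (-0.27) and *Ptgr1* rose (0.27) after 24 h LPS. Each gene was placed in a single list, so a known target may be counted in another, such as that of heme and iron. Genes of glutathione use and turnover (19 tested) had 2 that rose and 1 that fell after 3 h, and 1 that rose and 4 that fell after 24 h. The 4 that fell after 24 h were *Glo1* (-0.62) and *Hagh* (-0.50), the glyoxalases that detoxify methylglyoxal with glutathione, *Glrx* (-0.33), a glutaredoxin, and *Gpx4* (-0.26), the peroxidase of membrane lipids. Glutathione transferases (15 tested, *Gsta3* not among them) had 2 and 1 after 3 h, and 1 and 1 after 24 h, with *Gstm1* rising at both times (0.32 and 0.28).

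Thioredoxins and peroxiredoxins (17 tested) had 4 genes that rose and 1 that fell after 3 h, and 3 and 1 after 24 h LPS. *Prdx1*, a peroxiredoxin that sulfiredoxin repairs, rose at both times (0.56 and 0.30). Of the other peroxiredoxins, *Prdx2*, *Prdx3* and *Prdx4* passed at neither time. *Prdx5* fell after 3 h (-0.36) and *Prdx6* rose after 24 h LPS (0.57). *Sesn2*, which encodes sestrin 2, a leucine sensor induced by stress, was changed after 3 h. Its controls had 2.63, 3.60 and 2.34 CPM and its AclyM-KO libraries 4.56, 6.82 and 5.63, without overlap (log2 fold change 0.99, standard error 0.16, adjusted p = 6.49e-05). At 24 h its log2 fold change was 0.13 (adjusted p = 0.409), and the times differed (-0.86, adjusted p = 0.00267). Genes of heme and iron (9 tested) had 1 that rose and 2 that fell after 3 h, and 2 and 2 after 24 h. Among them *Slc40a1*, which encodes the iron exporter ferroportin, was lower in AclyM-KO libraries after 3 h, without overlap. It had 40.8, 40.3 and 43.7 CPM in controls and 32.5, 22.9 and 28.0 in AclyM-KO libraries. *Tfrc*, which encodes the transferrin receptor for iron uptake, was changed after 3 h, with 169, 173 and 162 CPM in controls and 283, 343 and 306 in AclyM-KO libraries (0.89, standard error 0.07, adjusted p = 5.05e-08). It fell after 24 h LPS (-0.29, adjusted p = 0.021), opposite to *Hmox1*, which rose at both times.

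Genes of cystine and cysteine supply (5 tested) had 3 that rose after 3 h, and 1 that rose, *Slc3a2*, and 1 that fell, *Mat2a* (-0.39), after 24 h LPS. *Slc1a4*, which encodes a transporter of neutral amino acids including cysteine, was changed after 3 h, from 15, 19 and 8 counts in controls to 19, 49 and 35 in AclyM-KO libraries (1.24, standard error 0.32, adjusted p = 0.0067), and had 0.05 after 24 h LPS (adjusted p = 0.928). Genes that make or remove superoxide and peroxide (9 tested) had 2 that rose and 1 that fell after 3 h, and 1 and 1 after 24 h. *Cat*, the gene of catalase, rose after 3 h (0.54).

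**Figure D5:**
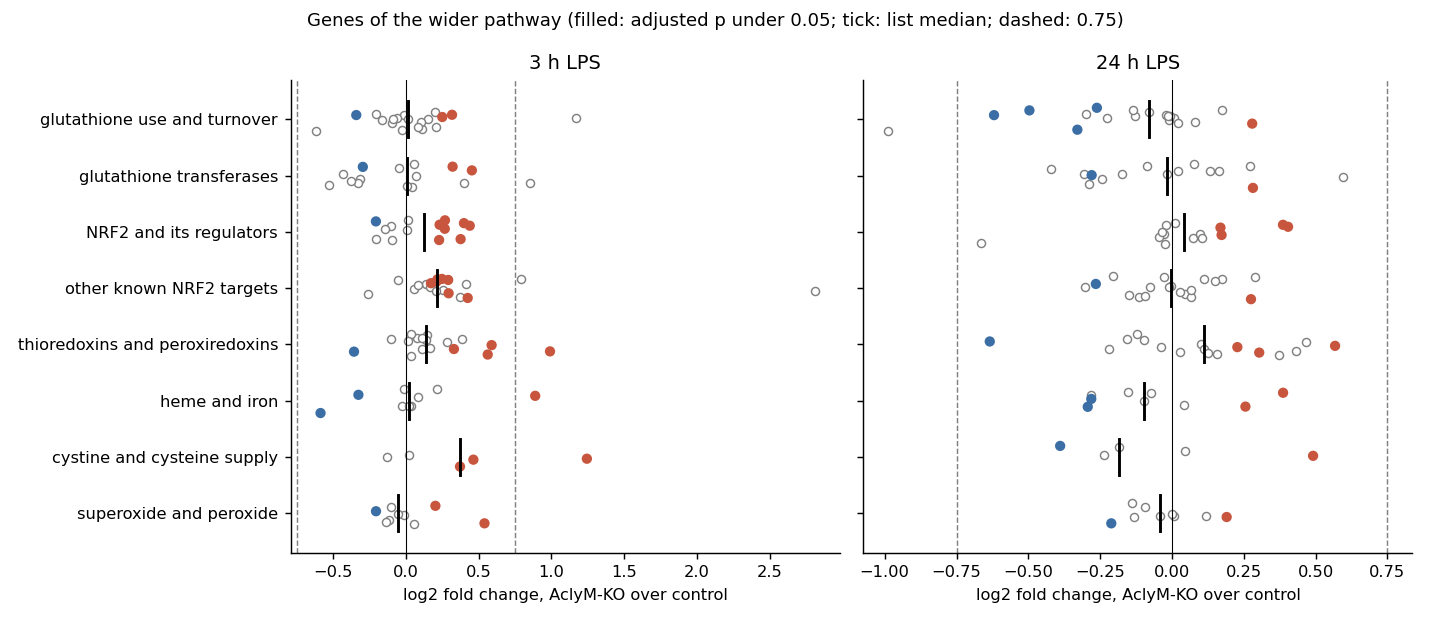
Log2 fold change of AclyM-KO over control (x axis) of each tested gene of the 8 lists (y axis) after 3 h (left) and 24 h LPS (right), on different x ranges. Filled points passed at an adjusted p under 0.05 (red rose, blue fell), black ticks mark list medians and dashed lines 0.75. Filled points beyond the dashed line are *Sesn2*, *Tfrc* and *Slc1a4* at 3 h, with 0.99, 0.89 and 1.24, and none at 24 h.

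Over the 12 libraries, the genes outside the 10 whose log2 CPM followed *Slc7a11* most closely were *Traf3* (Pearson's r = 0.981), *Ticam1* (0.979) and *Osbpl9* (0.978). For *Srxn1* they were *Prdx1* (0.997), *Clic5* (0.997) and *Sqstm1* (0.997), for *Gsta3* *Zfp36l2* (0.996), *Bcl2* (0.996) and *Slc25a45* (0.996), and for *Nqo1* *Gpat4* (0.983), *Zbtb26* (0.983) and *Zdhhc12* (0.980). Such values describe genes that share the 4 groups and the libraries, and most of the spread is between the times. Among the 10 genes themselves, r ran from 0.819 for *Slc7a11* with *Gsta3* to 0.998 for *Gclm* with *Hmox1*.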

How the data were processed

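Per the submitters' processing notes, reads were handled with CASAVA 1.8.2 and aligned with STAR 2.5.2b to mm10, and the study's methods name HOMER for counting. Strand and isoform settings of the counting are not given in the sources used here. The authors deposited raw read counts per RefSeq transcript in 13 libraries. Of 35745 rows, 35628 were matched to a symbol, and the 117 others held 1.13% of the counts.

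Counts were filtered on low values (filterByExpr), normalized by TMM and tested with edgeR 4.0.16 (R 4.3.3) in place of the study's DESeq2, with Benjamini-Hochberg adjustment over all 19621 transcripts tested. For lists and shares, each gene counted once, by its row of highest total. Standard errors and 95% intervals come from the quasi-likelihood F. Log2 CPM used a prior count of 2. Lengths came from GENCODE vM21. The step was tested on simulated counts. Alternatives were all 13 libraries, RLE normalization, no filter, DESeq2 1.42.0, a replicate block, only the compared groups, 1 row per gene, other fold thresholds and each library left out.

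The 10 genes, the lists and the tests were chosen with earlier results of these data known. All 10 are named throughout. Of the lists, the rule named genes where changed and *Nfe2l2*, *Keap1*, *Bach1* and *Slc3a2* regardless. Other list genes in the text were added after their values were seen. Likeness is given for the 4 members of largest fold change. Intervals on counts cover counting error only.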

Additional observations from a re-analysis of the deposited data

Results flagged for a closer look

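Among the 4 control libraries after 24 h LPS, replicate 1 stood apart from the others in 5 of the 10 genes, by a gap of 0.893 to 0.979 of the whole range, above Dixon's critical value for 4 samples. It held 0 CPM of *Gclc*, *Gclm*, *Gsta3* and *Srxn1* and 224 CPM of *Hmox1*. For *Gclc* and *Gsta3* this says nothing beyond depth, since their levels in the other controls at 24 h (20.6 to 22.2 and 8.31 to 8.49 CPM) lay below the 22.4 CPM of a single count there. The other 24 h controls had 95.9 to 107 CPM of *Gclm* and 214 to 227 CPM of *Srxn1*, above the 67.2 CPM that a count of 0 allows. Chance flags about 1 in 20 groups. This is the library with 34467 counts in all, in which 401 genes reached 10 counts. Over all genes its correlation was 0.729 to 0.733 with the libraries at 3 h and 0.669 to 0.671 with those at 24 h LPS, where its label puts it, and the cause was not tested.

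For 2 of the 10 genes the effect of the genotype differed between the times by the interaction test, against 9.59% of all genes tested. The difference, 24 h minus 3 h LPS, was 0.88 on the log2 scale for *Slc7a11*, which rose at 24 h, and -2.43 for *Gsta3*, which rose at 3 h.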

How the results depend on the processing

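No value that passed the test turned its direction. The number of the 10 genes changed after 24 h LPS was 1 and became 2 at a log2 fold threshold of 0.5, 0 at a threshold of 1 and 2 with the replicate block. It was 1 to 2 with single libraries left out, and 6 to 8 of the 10 genes then passed after 24 h LPS. After 3 h LPS 1 to 2 were changed and 3 to 7 passed with single libraries left out. Of the values of single genes under the alternatives, 665 kept their direction and side of the threshold, 13 no longer passed, 5 passed in addition and 17, none of which passed, turned their direction. With single libraries left out, *Slc7a11* at 3 h ran from -0.16 to 0.14, and the difference of the genotype effect between the times from -0.106 to 0.0318 for *Gclc* and from -0.0305 to 0.0564 for *Hmox1*. With the replicate block this difference was 0.0419 for *Gclc*, -0.00812 for *Hmox1* and 0.00846 for *Nqo1*, and without the filter -0.0123 for *Hmox1*. Beside those given above, *Nqo1* at 24 h did not pass by DESeq2 (0.64, adjusted p = 0.0516), *Txnrd1* at 24 h did not without the filter (0.15, adjusted p = 0.067), and *Txnrd1* at 3 h passed by DESeq2 (0.13, adjusted p = 0.0424) and without AclyM-KO 3 h replicate 2 (adjusted p = 0.0438). The cause was not tested.

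The deviations of libraries with the same replicate number had r from -0.03 to 0.06 in 15 pairs, 0 over 0.1. Between AclyM-KO libraries at 24 h and 3 h LPS, same-number pairs had 0.059, 0.039 and 0.041, and the other pairs -0.034 to -0.004. Whether libraries were paired across the times is not given by the labels and was not tested. The replicate block moved no other count of calls by over 1.5 times. It put *Nqo1* at 0.87 after 24 h LPS, past the fold threshold. In that fit control 24 h replicate 4, the only library of its number, had a term of its own. It therefore did not bear on the genotype difference, and the fit without this library gave 0.80 for *Nqo1*. The block is thus no separate check at 24 h. With 2 to 25 counts a library, *Gsta3* and *Nqo1* at 3 h were the members that depth limited most.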
